A study of Mus musculus with 8 samples.

Results

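Expression of 10 genes of blood clotting was followed in the livers of mice given the oligonucleotide SPC3833 or saline: the coagulation factor genes F2, F5, F7, F9, F10, F11 and F12, and the fibrinogen chain genes Fga, Fgb and Fgg. The genes were chosen by their Ensembl identifiers, with which the gene list pairs these symbols, and all 10 were found among the 22361 probe sets of the table. The rule itself held no measured value, but the genes were chosen with earlier results of these data known. F8, another clotting factor gene, was listed apart for its fall and is given below. The labels call SPC3833 an antisense oligonucleotide, that is, a synthetic strand designed to pair with an RNA of matching sequence, and do not name that RNA. The study held 8 female mice, of strain C57BL/6 by one label and C57BL/6J by the growth protocol, with 1 liver array each. Of these, 4 received SPC3833 into a vein at 5 mg/kg on each of 3 consecutive days, and 4 received saline. The labels disagree on the time of sampling: the study design and the source label place it on day 4, while the treatment protocol places sacrifice on day 3, with the first dose on day 0. The age of the mice was not given in the labels used here.

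Most clotting factors are made by hepatocytes and released into plasma as inactive precursors. In the intrinsic arm of the cascade, factor XII activates factor XI, and factor XI activates factor IX. In the extrinsic arm, factor VII acts with tissue factor on injury. Both arms activate factor X, which with its cofactor factor V turns prothrombin, the product of F2, into thrombin, and thrombin cuts fibrinogen into fibrin. Fibrinogen is built from the 3 chains encoded by Fga, Fgb and Fgg, and is also known as an acute phase protein, raised in plasma during inflammation.

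None of the 10 genes passed the test between SPC3833 and saline. The comparison used limma over all 22361 probe sets, which were called at an adjusted p (Benjamini-Hochberg) under 0.05, and 0 of 10 were called where 4.07% of all probe sets were. Among the 5591 brightest probe sets 10.4% were called (581), and all 10 genes were bright, as given below. At an unadjusted limma p under 0.05 there were 3 of 10, F5, F9 and F11, each with a lower mean in SPC3833, against 17.2% of all probe sets. Their adjusted p-values lay between 0.0657 and 0.0909, close to the threshold. By the sign of the log2 fold change alone, 4 genes were higher and 6 lower with SPC3833. The median log2 fold change of the 10 genes was -0.03, and that of all probe sets was 0.03. In whole liver, fewer cells of a type and less RNA per cell cannot be told apart.

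Before the single genes are given, 3 arrays need a remark. The mean log2 expression was 5.88 on SPC3833 array 2 and 5.77 to 5.80 on each of the 7 others. SPC3833 array 4 was lower among bright probe sets: over the 239 with a saline mean above 11, its median difference from the saline mean was -0.34, while those of SPC3833 arrays 1, 2 and 3 were -0.01, 0.12 and 0.03. Values without these SPC3833 arrays are given beside some of the results they touch. Saline array 1 was the lowest saline array for each of the 10 genes, and so set the low end of their saline ranges. Its median difference from the saline mean was -0.09 over the 10 genes and 0.004 over all probe sets. All 10 genes, whose products are known to be made in liver, were bright on these arrays, at or above percentile 93.0 of the saline means. As brightness also depends on the probes, the levels of different genes were not set against each other.

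**Figure D1:**
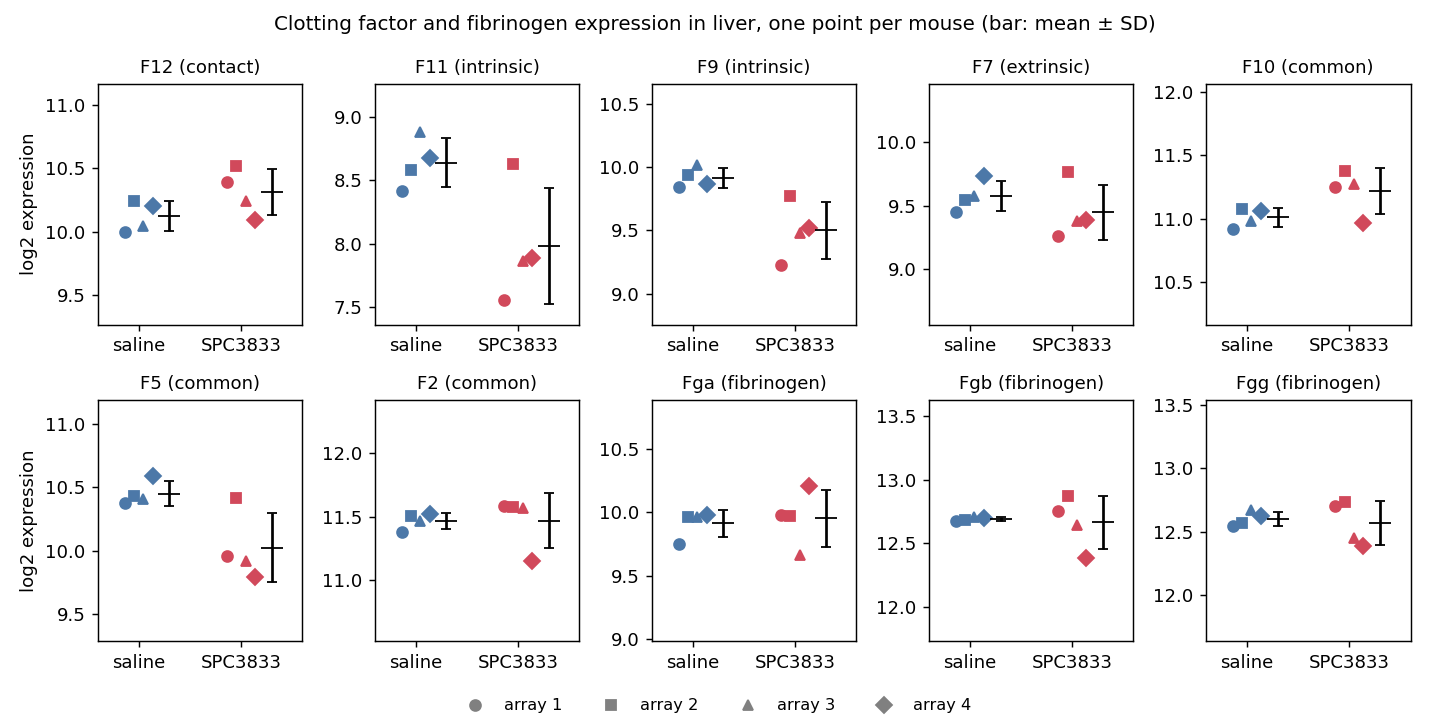
Log2 expression of each gene (vertical axes, each spanning the same 1.9 log2 units), with 1 point per mouse, saline in blue, SPC3833 in red, the marker shape giving the array number, and bars for the mean ± SD of 4 arrays. For F5, F7 and F11, SPC3833 arrays 1, 3 and 4 lay below all saline arrays while array 2 lay within or above them, and the fibrinogen genes overlapped.

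In the intrinsic arm, F11 and F9 had lower means with SPC3833, and F12 a higher one. F11 (ENSMUSG00000031645_at), which encodes factor XI, was at 8.42, 8.59, 8.88 and 8.68 on saline arrays 1 to 4. On SPC3833 arrays 1 to 4 it was at 7.56, 8.63, 7.86 and 7.88. Arrays 1, 3 and 4 of the SPC3833 mice were thus below every saline array, and array 2 was within the saline range. The mean was 8.64 ± 0.19 with saline and 7.98 ± 0.46 with SPC3833 (SD, n = 4 each). The log2 fold change was -0.66, with an SE of 0.193 and a 95% interval of -1.08 to -0.23, or 1.57-fold lower, and it did not pass in limma (adjusted p = 0.0879). The two-sided exact permutation test over the 70 assignments of the 8 arrays gave p = 0.0857. A more negative log2 fold change was found for 0.774% of all probe sets, and the SE of F11 was larger than that of 96.1% of them.

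F9 (ENSMUSG00000031138_at), which encodes factor IX, was the single gene of the 10 whose groups did not overlap, against 11.7% of all probe sets. Its saline values were 9.84, 9.93, 10.02 and 9.87, and its SPC3833 values were 9.23, 9.77, 9.48 and 9.52. SPC3833 array 2 was again the highest of its group, with a difference from the saline mean of -0.14 where the other 3 arrays had -0.69, -0.43 and -0.39. The saline mean was 9.91 ± 0.08 and the SPC3833 mean 9.50 ± 0.22 (SD, n = 4 each). The log2 fold change was -0.41, with an SE of 0.113 and a 95% interval of -0.66 to -0.17. This was 1.33-fold lower, with a limma adjusted p of 0.0657 and an exact permutation p of 0.0286, the smallest that 4 against 4 arrays can give.

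F12 (ENSMUSG00000021492_at), which encodes factor XII, the starting protease of contact activation, was at 9.998, 10.24, 10.05 and 10.20 with saline and at 10.39, 10.52, 10.24 and 10.10 with SPC3833. The first 2 SPC3833 arrays were above all saline arrays and the other 2 were within their range. Its log2 fold change was 0.19 (SE 0.108, 95% interval -0.05 to 0.42, limma adjusted p = 0.426). Without array 4 it was 0.26 (limma adjusted p = 0.237), and without array 2 it was 0.12 (adjusted p = 0.648).

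F5 (ENSMUSG00000026579_at) belongs with F9 and F11 by its values, though it acts later, as the cofactor of factor X. It was at 10.37, 10.43, 10.40 and 10.59 with saline, and at 9.96, 10.41, 9.92 and 9.79 with SPC3833. The same SPC3833 arrays, 1, 3 and 4, were below the saline range, and array 2 was within it. The mean was 10.45 ± 0.10 with saline and 10.02 ± 0.27 with SPC3833 (SD, n = 4 each). The log2 fold change of -0.43 (SE 0.127, 95% interval -0.71 to -0.15), 1.35-fold lower, had a limma adjusted p of 0.0909 and an exact permutation p of 0.0857.

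Whether F5, F9 and F11 passed depended on SPC3833 array 2 and on the processing. Array 2 was the highest SPC3833 array for all 3 genes, so leaving it out had to make each log2 fold change more negative. Without array 2 all 3 passed, where 4.32% of all probe sets did: the log2 fold change was -0.87 for F11 (SE 0.127, limma adjusted p = 0.00664), -0.56 for F5 (SE 0.0923, adjusted p = 0.0112) and -0.51 for F9 (SE 0.0998, adjusted p = 0.0224). Without SPC3833 arrays 2 and 4 they also passed, with adjusted p of 0.0167, 0.0370 and 0.0362, where 2.44% of all probe sets did. Leaving out any other single array left all 3 above the threshold. Over the 18 alternative fits F9 passed in 8, F5 in 6 and F11 in 5, and the sign stayed negative in all 18 for each. After quantile normalization all 3 passed, with adjusted p of 0.0298 for F9, 0.0285 for F5 and 0.0488 for F11. Quantile normalization called 1066 probe sets (4.77%) where the deposited values gave 911. With all 8 arrays kept, the 3 genes also passed with array weights and among probe sets above the median.

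**Figure D2:**
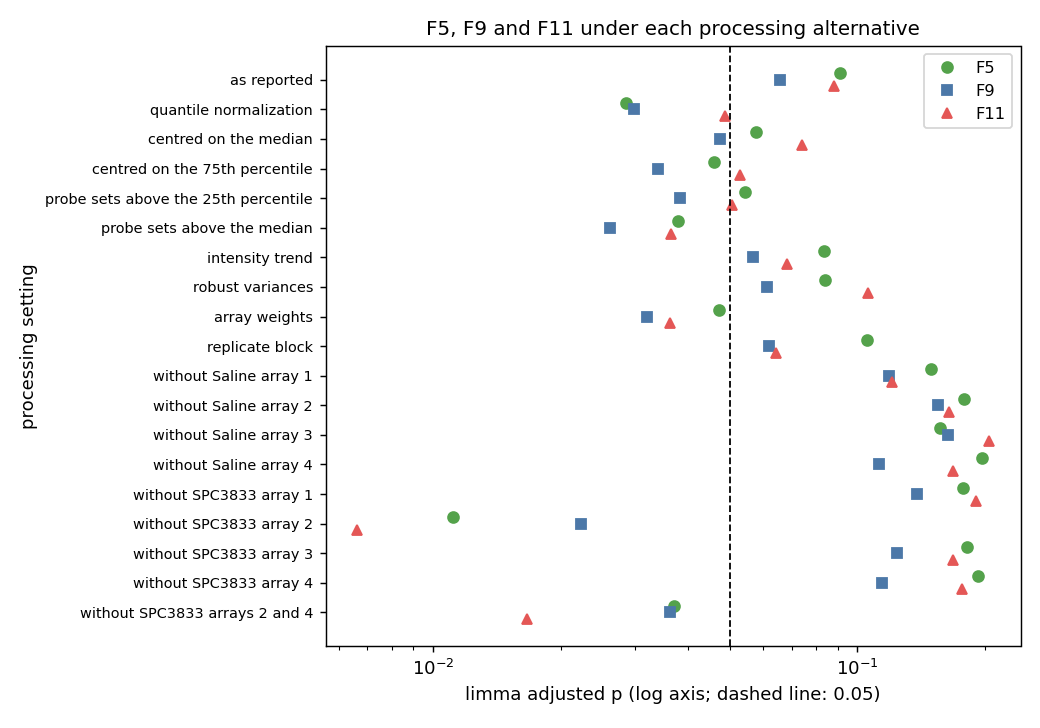
Limma adjusted p (horizontal, log axis) of F5, F9 and F11 as reported and under each of 18 alternatives (vertical), with the threshold of 0.05 dashed. Leaving out SPC3833 array 2, the highest of its group for each gene, moved all 3 genes below the threshold, to between 0.00664 and 0.0224.

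The position of array 2 was shared by many genes. On 1436 probe sets exactly 3 of the 4 SPC3833 arrays lay below the saline range, and on 893 of these (62.2%) the exception was array 2. Arrays 1, 3 and 4 were the exception on 218, 168 and 157. F5, F7 and F11 were among the 893. On 2319 probe sets exactly 3 of 4 lay above the saline range, and there the exception was array 4 on 781 (33.7%), F2 and F10 among them, and array 2 on 305 (13.2%). Over the 390 probe sets called lower, the median difference from the saline mean was -0.48 on array 2 and between -0.59 and -0.68 on the other SPC3833 arrays. These 390 were called with array 2 in the fit, so the value cannot show how far array 2 followed the others. Over all probe sets the median difference of array 2 from the saline mean was 0.10. With each array centred on its own median F11 differed from the saline mean by -0.10 on array 2 and by -1.13, -0.81 and -0.74 on the others. For F9, F5 and F11 array 2 lay closer to the other SPC3833 arrays under other scalings. F9 on array 2 went from -0.14 to -0.24 after this centring and to -0.29 after quantile normalization, where array 4 was at -0.33. F5 on array 2 went from -0.03 to -0.13 and -0.19. F11 on array 2 went from -0.01 to -0.10 and -0.13, and arrays 1, 3 and 4 were at -1.07, -0.78 and -0.81 after quantile normalization. F8, described below, differed from the saline mean by -2.39 on array 2 of the deposited values. F8 was listed for its fall with array 2 among the arrays, so this value too cannot show how far array 2 followed the others. Why this array differs was not tested.

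**Figure D3:**
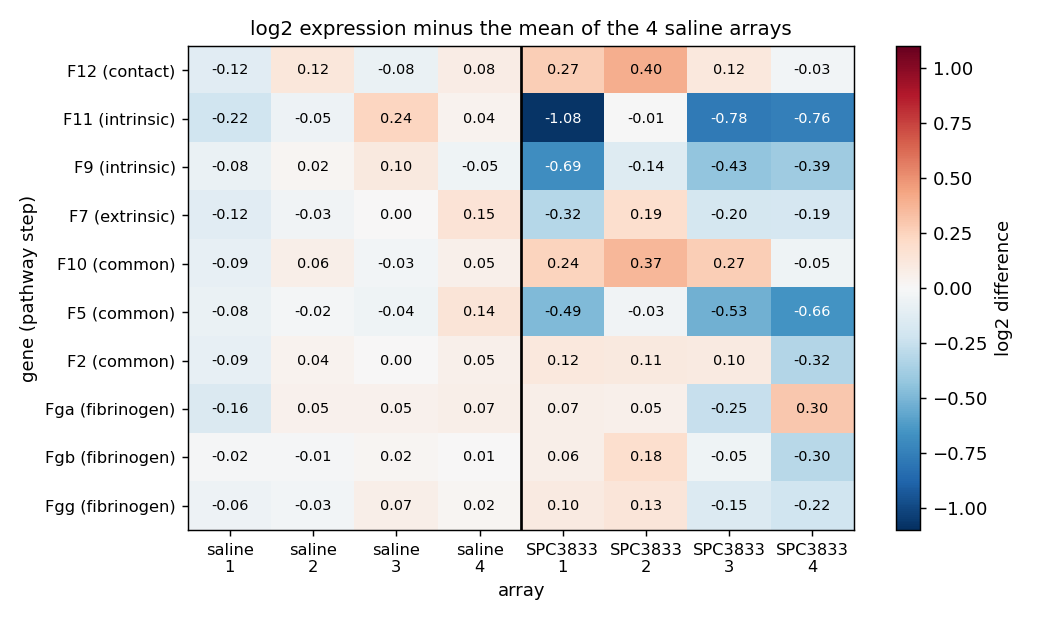
Log2 expression of each gene (rows, by pathway step) on each array (columns) minus the mean of the 4 saline arrays, in red above and blue below it. F11, F9 and F5 differed from the saline mean by -1.08 to -0.39 on SPC3833 arrays 1, 3 and 4, and by -0.14 to -0.01 on array 2.

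For F9, F11 and F5, the promoter windows are shown because these were the genes nearest to the threshold. They run from 250 bases before to 50 bases after the start site (RefSeq, GRCm38.p6), read 5′ to 3′ along the gene. The window of F5 is chr1:164151585-164151884 (+ strand), that of F9 is chrX:59999214-59999513 (+ strand) and that of F11 is chr8:45261982-45262281 (- strand). Capitals mark matches, on either strand, to 4 letter patterns of factors known in hepatocytes: GTTAAT (part of an HNF1 site), CAAAGT (part of an HNF4 site), TTGCNNAA (C/EBP) and CTGGGA (core of the interleukin-6 response element described in rat fibrinogen genes). No 2 matches overlapped in the windows printed here.
F9: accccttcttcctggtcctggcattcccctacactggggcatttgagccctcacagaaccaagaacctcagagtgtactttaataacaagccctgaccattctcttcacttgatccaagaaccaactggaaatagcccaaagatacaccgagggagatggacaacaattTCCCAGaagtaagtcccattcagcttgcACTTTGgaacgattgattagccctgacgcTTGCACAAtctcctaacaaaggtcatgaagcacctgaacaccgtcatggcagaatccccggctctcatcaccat
F11: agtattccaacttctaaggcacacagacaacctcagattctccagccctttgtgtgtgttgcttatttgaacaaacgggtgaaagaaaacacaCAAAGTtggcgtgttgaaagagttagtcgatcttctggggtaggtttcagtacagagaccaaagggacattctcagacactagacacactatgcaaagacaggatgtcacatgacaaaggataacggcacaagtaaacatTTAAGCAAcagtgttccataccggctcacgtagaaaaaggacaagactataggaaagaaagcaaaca
F5: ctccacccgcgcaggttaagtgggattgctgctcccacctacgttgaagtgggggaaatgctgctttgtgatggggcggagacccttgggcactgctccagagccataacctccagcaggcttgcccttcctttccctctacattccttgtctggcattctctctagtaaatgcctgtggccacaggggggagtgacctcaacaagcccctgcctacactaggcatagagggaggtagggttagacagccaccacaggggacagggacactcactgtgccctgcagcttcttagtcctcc
F9 held a match to TTGCNNAA starting at base -24 from the start site, 1 to CAAAGT at -53 and 1 to CTGGGA at -81. F11 held TTGCNNAA at -17 and CAAAGT at -157. F5 held none of the 4 patterns in this window. Over all 10 genes, TTGCNNAA was in 4 windows and in 10.8% of the 32851 windows of the mouse table. CAAAGT was in 2 of 10 and in 14.4% of all windows, and the 2 were F9 and F11. A match is a description of letters, not of a bound factor.

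F7 and F10 lie next to each other on chromosome 8, with 0 other genes starting between them in the RefSeq table, and their means lay on opposite sides of saline. F7 (ENSMUSG00000031443_at) encodes factor VII, the protease of the extrinsic arm. It was at 9.45, 9.54, 9.58 and 9.73 with saline and at 9.26, 9.76, 9.38 and 9.39 with SPC3833. Arrays 1, 3 and 4 were below the saline range, as for F11 and F5, and array 2 was above it. On the log2 scale the fold change of F7 was -0.13 (SE 0.115, 95% interval -0.38 to 0.12, limma adjusted p = 0.662), and without array 2 it was -0.23 (adjusted p = 0.225).

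F10 (ENSMUSG00000031444_at) encodes factor X, at which the arms of the cascade meet. It was at 10.92, 11.07, 10.98 and 11.06 with saline and at 11.25, 11.38, 11.28 and 10.96 with SPC3833. The first 3 SPC3833 arrays were above all saline arrays, and array 4 was within their range. Its log2 fold change was 0.21 (SE 0.101, 95% interval -0.01 to 0.43), 1.16-fold higher, with a limma adjusted p of 0.326. Without array 4 it was 0.29 (adjusted p = 0.114). Array 4 differed from the saline mean of F10 by -0.05 on the deposited scale and by 0.12 after quantile normalization. No gene of the 10 was called higher in any of the 18 alternatives, and as reported 2.33% of all probe sets were called higher (521) and 1.74% lower (390). That split depended on the scaling, with 454 higher and 612 lower after quantile normalization and 276 and 487 with arrays centred on the median.

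F2 (ENSMUSG00000027249_at), which encodes prothrombin, had equal means. It was at 11.38, 11.51, 11.47 and 11.52 with saline and at 11.59, 11.57, 11.57 and 11.15 with SPC3833. The first 3 SPC3833 arrays were just above the saline range and array 4 was below it, so that the mean was 11.47 in both groups (SD 0.06 with saline, 0.21 with SPC3833, n = 4 each). The log2 fold change was 0.00 (SE 0.109, 95% interval -0.24 to 0.24, limma adjusted p = 0.997), and its sign turned under 6 of the 18 alternatives. Without array 4 the log2 fold change was 0.11 (adjusted p = 0.579). The low value of array 4, at -0.32 from the saline mean, stood beside a median of -0.34 over probe sets of saline mean above 11. It depended on the scaling. After quantile normalization F2 differed from the saline mean by 0.12, -0.02, 0.07 and -0.09 on SPC3833 arrays 1 to 4.

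The fibrinogen genes had nearly the same mean in both groups. Fgb (ENSMUSG00000033831_at), the beta chain, varied little with saline, at 12.68, 12.68, 12.71 and 12.70, and was at 12.75, 12.87, 12.64 and 12.39 with SPC3833. Fgg (ENSMUSG00000033860_at), the gamma chain, was at 12.55, 12.57, 12.67 and 12.62 with saline and at 12.70, 12.74, 12.45 and 12.39 with SPC3833. For both, SPC3833 arrays 1 and 2 were above all saline arrays and arrays 3 and 4 were below them. The low values of array 4, with differences from the saline mean of -0.30 for Fgb and -0.22 for Fgg, stood beside a median difference of -0.34 over all probe sets of saline mean above 11, and they depended on the scaling. After quantile normalization array 4 differed from the saline mean by 0.02 for Fgb and by 0.18 for Fgg.

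Fga (ENSMUSG00000028001_at), the alpha chain, was at 9.75, 9.96, 9.96 and 9.98 with saline and at 9.98, 9.97, 9.66 and 10.21 with SPC3833. On the deposited scale array 4, the lowest SPC3833 array for Fgb and Fgg, was the highest for Fga, 0.30 above the saline mean. This contrast was not there after quantile normalization, where array 4 was the highest SPC3833 array for Fga (0.40) and Fgg and level with array 2 as the highest for Fgb. The log2 fold change was 0.04 for Fga (95% interval -0.21 to 0.30), -0.03 for Fgb (-0.26 to 0.20) and -0.03 for Fgg (-0.25 to 0.18), with limma adjusted p-values of 0.925, 0.948 and 0.928. In this fit the intervals reach at most a 1.23-fold difference for Fga, 1.20-fold for Fgb and 1.19-fold for Fgg in either direction. Some alternatives gave wider intervals, such as -0.09 to 0.37 for Fga without SPC3833 array 3. With an intensity trend in the fit they were -0.32 to 0.27 for Fgb and -0.32 to 0.25 for Fgg. Others gave narrower ones, such as -0.17 to 0.13 for Fgb after quantile normalization. The signs of the log2 fold changes of Fga, Fgb and Fgg turned under 4, 2 and 3 of the 18 alternatives. Without array 4 these log2 fold changes were -0.04, 0.06 and 0.03.

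Fgg, Fga and Fgb form a cluster on chromosome 3, and their windows, cut and marked as above, are shown because all 3 held CTGGGA. The window of Fga is chr3:83025903-83026202 (+ strand), that of Fgb is chr3:83049814-83050113 (- strand) and that of Fgg is chr3:83007474-83007773 (+ strand).
Fga: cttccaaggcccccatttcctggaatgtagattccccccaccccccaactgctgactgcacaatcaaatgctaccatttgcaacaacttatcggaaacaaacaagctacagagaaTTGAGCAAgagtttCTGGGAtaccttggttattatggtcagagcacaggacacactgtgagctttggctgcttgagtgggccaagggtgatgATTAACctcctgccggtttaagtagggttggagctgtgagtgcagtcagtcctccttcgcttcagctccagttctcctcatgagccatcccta
Fgb: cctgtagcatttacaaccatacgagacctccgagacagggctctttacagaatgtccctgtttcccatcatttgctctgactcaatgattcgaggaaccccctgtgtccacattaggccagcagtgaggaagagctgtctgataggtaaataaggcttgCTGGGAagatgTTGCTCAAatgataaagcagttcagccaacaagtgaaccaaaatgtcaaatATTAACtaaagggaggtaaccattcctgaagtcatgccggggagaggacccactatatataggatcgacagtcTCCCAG
Fgg: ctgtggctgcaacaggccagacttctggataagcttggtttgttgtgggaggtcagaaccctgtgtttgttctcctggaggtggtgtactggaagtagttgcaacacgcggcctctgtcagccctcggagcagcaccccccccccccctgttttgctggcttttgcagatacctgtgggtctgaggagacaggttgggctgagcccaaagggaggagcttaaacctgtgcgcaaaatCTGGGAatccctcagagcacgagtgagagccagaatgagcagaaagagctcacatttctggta
CTGGGA was in 6 of the 10 windows and in 31.8% of all mouse windows. It started at -121 in Fga, at -91 and, on the other strand, at 45 in Fgb, and at -13 in Fgg. GTTAAT, read on the other strand, was in the windows of Fga, Fgb and F2, 3 of 10, and in 7.10% of all windows. Neither the presence nor the lack of a match here says whether a factor was bound.

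F8 (ENSMUSG00000031196), which encodes factor VIII, the cofactor of factor IX, lies outside the 10 genes and fell. It was listed apart for its fall, of rank 2 among all probe sets, and further clotting genes were not analysed. F8 therefore does not stand for the clotting genes outside the 10. Its log2 expression was 7.66, 7.54, 7.91 and 8.01 with saline and 5.38, 5.39, 4.58 and 5.29 with SPC3833, 6.14-fold lower (log2 fold change -2.62, SE 0.176, limma adjusted p = 9.50e-06). F8 passed in all 18 alternatives. In liver, factor VIII is known to be made mainly by endothelial cells, unlike the hepatocyte-made factors above.

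**Figure D4:**
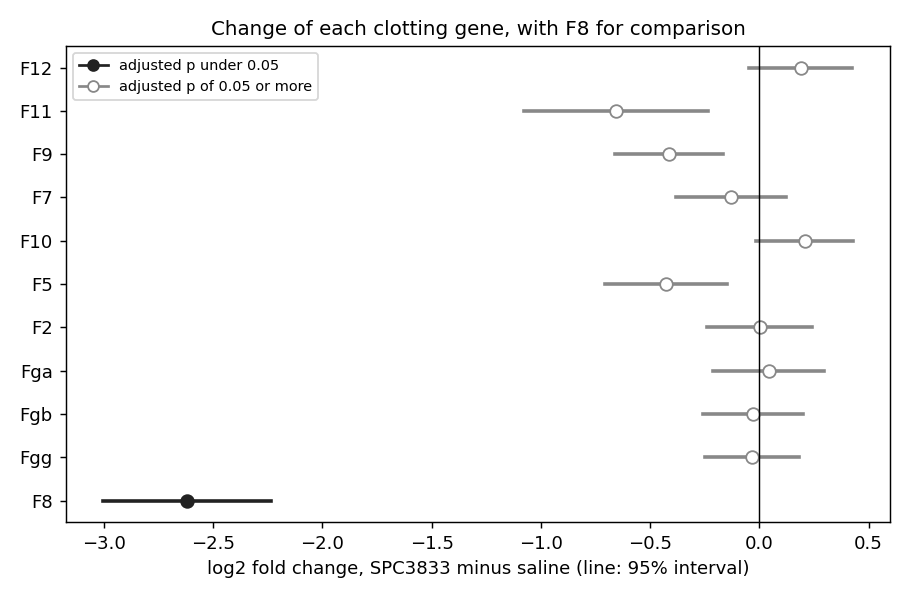
Log2 fold change, SPC3833 minus saline (horizontal), with its 95% interval for each of the 10 genes and F8 (vertical), filled where the limma adjusted p was under 0.05. F11, F9 and F5 lie below 0 with adjusted p of 0.0657 to 0.0909, and F2 and the fibrinogen genes lie around 0. F8, shown with its fall already known, lies at -2.62 and is the only filled point.

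With all arrays, the SD between mice was larger in SPC3833 than in saline for 10 of 10 genes, where it was larger for 59.5% of all probe sets and for 76.6% of the 2237 brightest. The median SD of the 10 genes was 0.088 with saline and 0.216 with SPC3833. For Fgb it was 0.016 with saline and 0.208 with SPC3833. Over all probe sets the median SD was 0.127 and 0.151, and over the brightest 2237 it was 0.102 and 0.175. Without SPC3833 array 2 the SD was larger in SPC3833 for 7 of 10 genes, near the 66.0% of the brightest 2237 (53.2% of all). Without array 4 it was larger for 8 of 10 genes, beside 66.9% of the brightest 2237 (51.6% of all). These SDs are given on the deposited scale only. On that scale Fgb differed from the saline mean by 0.06, 0.18, -0.05 and -0.30 on SPC3833 arrays 1 to 4. After quantile normalization it differed by -0.04, 0.02, -0.09 and 0.02. The differences of Fga did not draw together, with -0.25 to 0.30 as deposited and -0.25 to 0.40 after quantile normalization. How far the wider spread depends on the scaling was not tested, and no test was made of these spreads.

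**Figure D5:**
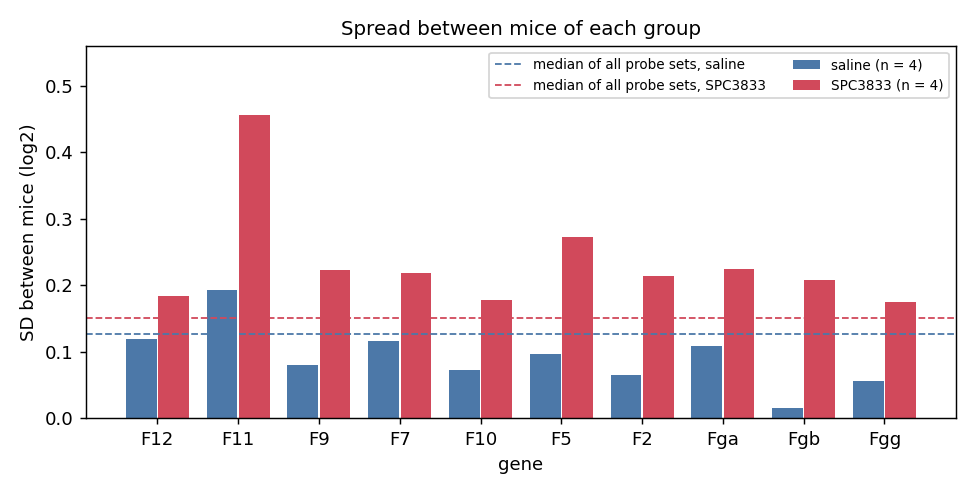
SD of log2 expression between the 4 mice of each group (vertical) for each gene (horizontal), saline in blue and SPC3833 in red, with the medians of all 22361 probe sets dashed. On the deposited scale shown, the red bar is higher for 10 of 10 genes, and F11 has the widest spread of the 10, 0.46 with SPC3833.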

How the data were processed

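Liver total RNA was measured on 8 Affymetrix arrays, 1 per mouse, labelled by a whole-transcript sense-strand assay, per the labels' protocols. What the authors deposited is a table of log2 values, with 1 Ensembl ID for each of 22361 probe sets. The log2 scale was read from the range of 0.88 to 14.18. The submitters' processing notes name affy, with no version. How background and scale were corrected, how probe sets were defined and which build was used is not given in the sources used here. The raw intensities were not used here.

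Groups came from the sample titles, which call the replicates biological. Arrays shared at most 0.134% of identical values. The 2 groups were fitted with limma 3.58.1 (R 4.3.3; lmFit, eBayes, two-sided, no covariate, no filter), with p-values adjusted over all probe sets by Benjamini-Hochberg. Single genes were also tested by exact permutation. The number of arrays limits the precision: the median SE was 0.111 for the 10 genes and 0.106 for all. The script was tested on simulated data. Figures used matplotlib 3.10.9.

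All 10 members were named by rule. The members, lists and alternatives were chosen with earlier results of these data known. The RefSeq table (49997 entries) holds an Ensembl ID for 0, so the symbols rest on the gene list, and other planned lists (further clotting genes, anticoagulants, fibrinolysis, cell type markers) were not analysed here. Promoter windows were matched by symbol for 10 of 10. Alternatives covered scaling, filters, variance models, array weights, the replicate block and arrays left out.

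Across genes, the deviations of same-numbered arrays of the 2 groups had correlations of 0.159, 0.043, -0.030 and 0.145. Differently numbered arrays were not correlated for comparison. The numbers were not taken to pair the mice.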

Additional observations from a re-analysis of the deposited data

Results flagged for a closer look

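Of 22 sets of 4 values examined, for the 10 genes and F8 in each group, 3 held 1 array far from the others by Dixon's criterion, and chance gives about 1 in 20. On SPC3833 array 4, F2 was at 11.15, and its group otherwise ran from 11.57 to 11.59. That array was lower among bright probe sets, and after quantile normalization F2 differed there from the saline mean by -0.09. On saline array 1, Fga was at 9.75, and its group otherwise ran from 9.96 to 9.98. On SPC3833 array 3, F8 was at 4.58, where its group otherwise ran from 5.29 to 5.39.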

How the results depend on the processing

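The count of 0 genes called, 0 higher and 0 lower, depended on the processing, and the cause was not tested. It was 3, all lower (F5, F9 and F11), after quantile normalization (4.77% of all probe sets called), with array weights (4.63%), among probe sets above the median (13.9%) and without SPC3833 arrays 2 and 4 (2.44%). It was 2, both lower (F5 and F9), with arrays centred on the 75th percentile (4.34%), and 1, lower (F9), with arrays centred on the median (3.41%) or among probe sets above the 25th percentile (7.72%). Leaving out 1 array gave 0 to 3, all lower, with 3 without SPC3833 array 2 (4.32%) and 0 without each other array. The intensity trend and robust variances gave 0. With the replicate block 0 of 10 genes were called, as without it. Of all probe sets 856 were called with the block and 911 without it. The filters tested fewer probe sets.

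The median log2 fold change of the 10 genes ranged from -0.0939 to -0.00812 when 1 array was left out. Signs turned for genes near 0 only. F2 was at -0.0404 with arrays centred on the median, -0.0321 centred on the 75th percentile, and -0.0376 to 0.109 with 1 array left out. Fga was at -0.0206 with array weights, -0.0909 without SPC3833 arrays 2 and 4, and -0.0423 to 0.140 with 1 array left out. Fgb was at 0.00572 without SPC3833 arrays 2 and 4, and -0.0977 to 0.0647 with 1 array left out. Fgg was at 0.0383 after quantile normalization, and -0.0900 to 0.0261 with 1 array left out. Among the other values of single genes, F8 included, 164 kept sign and side of the threshold and 19, of F5, F9 and F11, newly passed.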
